A study of Mus musculus with 2 samples.

Results

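Cxcl9, Cxcl10 and Cxcr3 are 3 of the 19465 genes measured in 2 sections of mouse melanoma, and they were chosen by their counts in these sections, in which the 2 chemokines differed in opposite directions. Because the values that chose them come from the same 2 sections, all levels and ratios of these genes are descriptions and carry no test. CXCL9 and CXCL10 are small secreted proteins that attract cells bearing the receptor CXCR3, chiefly activated T cells and NK cells. Both genes are induced by interferon gamma. Cxcl10 also responds to type I interferon and to NF-kB, whereas Cxcl9 depends more narrowly on interferon gamma, and in tumours both can come from macrophages, dendritic cells, vessel cells, fibroblasts and the tumour cells themselves.

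The sections came from tumours of B16.F10, a pigmented melanoma line, grown in mice of 8 to 16 weeks that received no treatment, and were collected on day 15. The WT section is from a mouse whose genotype is labelled wild-type and whose title gives Csnk2bfl/fl, the floxed allele with no Cre named. The KO section is from a Foxp3-Cre × CK2b-fl/fl mouse, in which the Foxp3 promoter restricts loss of Csnk2b, the regulatory subunit of protein kinase CK2, to regulatory T cells. Tumour cells and the other host cells keep the gene in both animals. Visium CytAssist was used on 10 µm slices of fixed, paraffin-embedded tissue: paired probes for each gene are ligated in place and captured on a grid of barcoded spots, each of which covers a small region with several cells. With 1 section per genotype the difference between sections has no replicate check, and every interval given here is at 95% and covers counting error only.

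The WT section had 3066 spots under tissue with 88735936 unique molecular identifiers (UMIs, 1 per captured molecule) and the KO section 2746 spots with 94422680. The median spot held 26818.5 and 36769 UMIs. Spots under 5000 UMIs, 395 in WT and 356 in KO, lay mostly in contiguous areas, along the left and lower sides of the WT section and in the middle of the KO section. The sections used 2138 of the same grid barcodes. The melanocytic list marked both sections as the labelled melanoma: all 10 of its genes were measured, and they summed to 44560 counts per 1000000 UMIs (CPM) in WT and 52439 CPM in KO. As a floor for probe signal, 15 genes of unrelated organs had a median of 17 UMIs in WT (8 to 333) and 42 in KO (22 to 355).

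The 2 ligand genes are neighbours. On chromosome 5 of GRCm38 Cxcl9 runs from 92321331 to 92328079 and Cxcl10 from 92346638 to 92348889, both on the minus strand, with 18558 bases between them. Cxcr3 lies on chromosome X, from 101731535 to 101734147. The 250 bases before each ligand gene's start are shown because the genes share the interferon gamma input but differ in these letters. Sequences are from RefSeq for GRCm38.p6, written 5′ to 3′ on the gene's strand, for Cxcl9 chr5:92328080-92328329 and for Cxcl10 chr5:92348890-92349139. Capitals mark matches to the core of the interferon-stimulated response element (ISRE) and to NF-kB, searched on both strands.
Cxcl9: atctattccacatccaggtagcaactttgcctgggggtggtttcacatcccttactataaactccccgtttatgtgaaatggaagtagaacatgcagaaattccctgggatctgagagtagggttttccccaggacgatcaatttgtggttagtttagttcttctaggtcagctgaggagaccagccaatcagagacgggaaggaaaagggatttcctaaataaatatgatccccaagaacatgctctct
Cxcl10: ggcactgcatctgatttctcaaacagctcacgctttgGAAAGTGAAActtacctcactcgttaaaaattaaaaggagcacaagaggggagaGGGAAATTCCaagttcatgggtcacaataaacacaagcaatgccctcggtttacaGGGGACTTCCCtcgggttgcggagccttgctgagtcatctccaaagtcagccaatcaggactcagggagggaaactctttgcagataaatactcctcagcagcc

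The Cxcl10 window held 1 match to the ISRE core (GAAA, any 2 bases, GAAA, found in 2.98% of 32851 promoter windows of this length), from 213 to 204 bases before the start. It also held 3 matches to the NF-kB motif, which 9.55% of windows hold, and the last capital run contains 2 of these, overlapping. One match to the AP-1 motif (TGANTCA, in 6.75% of windows) and 1 to the hypoxia response core (ACGTG or GCGTG, in 38.6%) were present as well. The Cxcl9 window held none of these and 1 TATAAA, a sequence in 12.4% of windows, from 195 to 190 bases before the start. The interferon gamma-activated site (GAS, TTCNNNGAA, in 7.02% of windows) was searched too, and neither ligand window held a match. An interferon element with other letters than these motifs would not be found this way. A match is a run of letters and not a measured binding site, and sequence farther from the start was not searched.

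Cxcl9 was the ligand with more transcripts in the KO section. It gave 615 UMIs in WT and 3441 in KO, or 6.93 CPM (6.39 to 7.501) and 36.4 CPM (35.2 to 37.7). The KO over WT ratio was 5.26 (4.82 to 5.74). Of 10374 genes that reached 500 UMIs in their higher section, 20 had a KO over WT ratio of 5 or more (0.193%), and Cxcl9 was 1 of them. Each section was also divided at its median row and column into 4 quadrants to show the spread within 1 section. The WT quadrants held 7.63, 3.10, 11.8 and 8.01 CPM of Cxcl9 and the KO quadrants 29.0, 22.0, 39.9 and 56.2 CPM, so the lowest KO quadrant lay above the highest WT quadrant.

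Cxcl10, the other ligand, went the other way over the whole section. It gave 29734 UMIs in WT and 20395 in KO, or 335 CPM (331 to 339) and 216 CPM (213 to 219), a KO over WT ratio of 0.645 (0.633 to 0.656), which is 1.55-fold lower in KO. Among the same genes 10.3% were at least 1.5-fold lower in KO, so a difference of this size was common. The WT quadrants held 267, 285, 390.3 and 401 CPM of Cxcl10. The KO quadrants held 164, 179, 399.8 and 232 CPM. The quadrants of the sections therefore overlapped: 3 KO quadrants lay below all WT quadrants and 1 stood level with the highest of them. The maps of the 3 genes show the same, with Cxcl10 in broad patches through the WT section and more along the margins of the KO section.

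**Figure D1:**
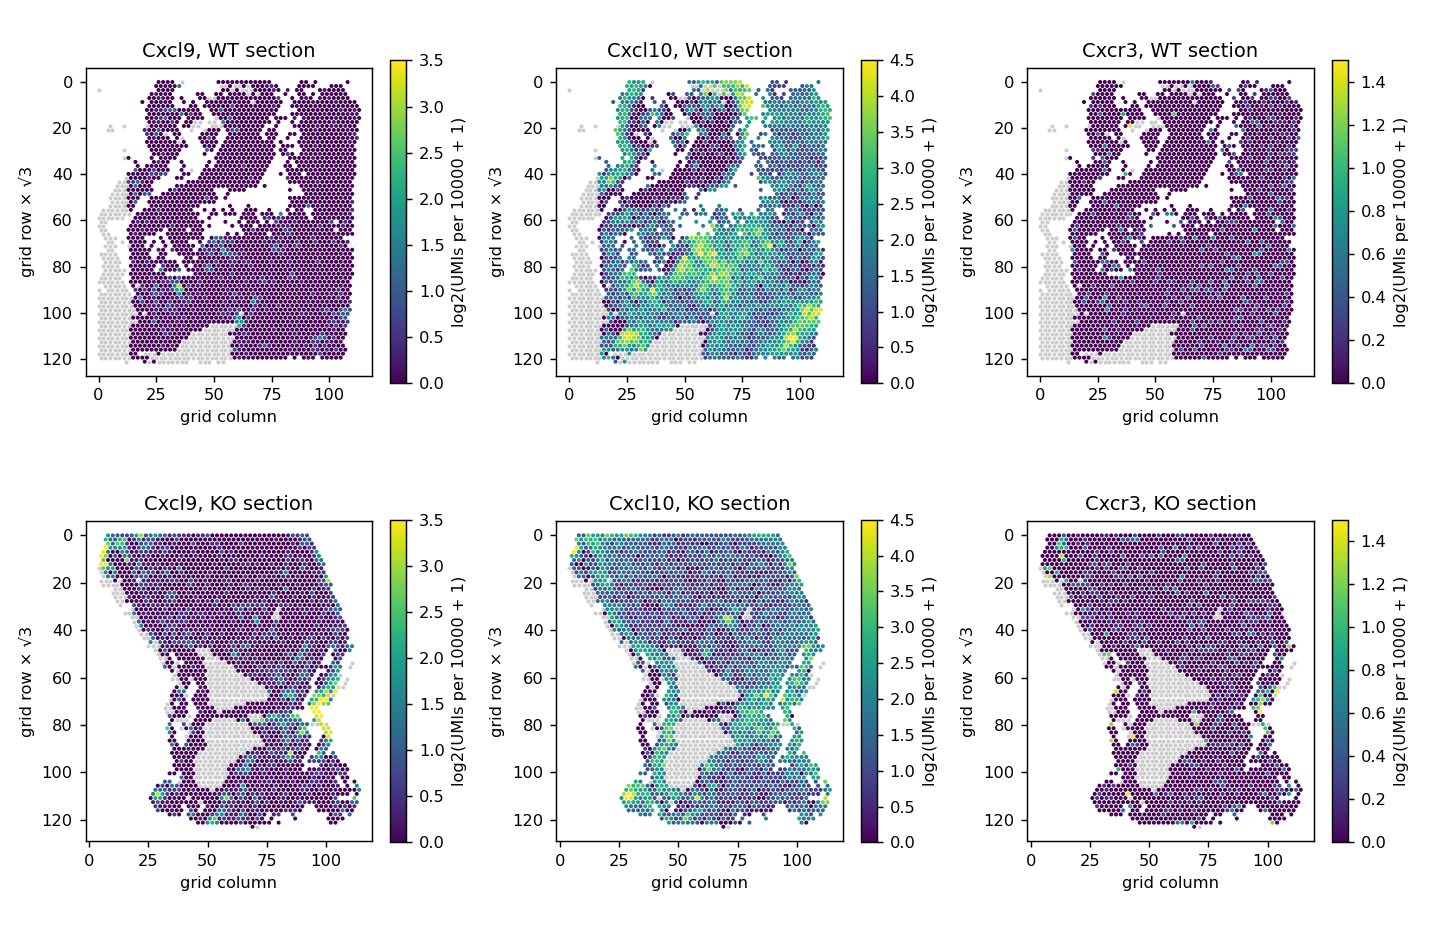
Each point is 1 spot, placed by grid column and scaled grid row and coloured by log2(UMIs per 10000 + 1) of Cxcl9, Cxcl10 or Cxcr3, with 1 colour scale per gene for both sections; values above its top take the last colour, and spots under 5000 UMIs are grey. High Cxcl9 lies at the KO margin, while Cxcl10 is spread over both sections and Cxcr3 is sparse in both.

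Cxcr3, the receptor, was sparse. It gave 387 UMIs in WT and 546 in KO, 4.36 CPM (3.94 to 4.82) and 5.78 CPM (5.31 to 6.29), with a KO over WT ratio of 1.33 (1.16 to 1.51). This was 22.8 and 13 times the median count of the unrelated-organ genes, the range of which reached 333 and 355 UMIs. The WT quadrants held 3.57, 4.74, 3.18 and 5.201 CPM and the KO quadrants 5.98, 6.15, 3.55 and 6.14 CPM. These ranges overlapped. No spot in either section held more than 3 Cxcr3 UMIs.

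Of the other genes of this axis, Dpp4, the surface peptidase that trims and inactivates both ligands, gave 1170 UMIs in WT and 337 in KO, a ratio of 0.271 (0.239 to 0.306). Among the genes that reached 500 UMIs, 5.06% were at least 2-fold lower in KO. Cxcl11, a further CXCR3 ligand gene of this cluster, is a transcribed pseudogene in the mouse annotation and was not analysed here. All 10 genes of the interferon gamma pathway were measured, 1 at least 1.5-fold higher in KO and 2 at least 1.5-fold lower (0 and 4 with trimmed-mean, TMM, scaling). Over the 16961 genes with at least 50 UMIs in all, 25.2% were 1.5-fold or more higher in KO and 9.98% were that much lower. Among the genes that reached 500 UMIs in their higher section, the shares were 5.23% and 10.3%. Ifng, the cytokine, gave 54 and 91 UMIs, a ratio of 1.58 (1.12 to 2.26). These counts were 3.18 and 2.17 times the median of the unrelated-organ genes. Of the 10 such genes measured, 7 were also at least 1.5-fold higher in KO, so the Ifng ratio is not apart from that floor. Irf1, a transcription factor that interferon gamma induces, had a ratio of 1.28 (1.24 to 1.32). The pair at least 1.5-fold lower were Irf8, a myeloid interferon factor, at 0.569 and Socs1, a feedback inhibitor, at 0.606. The receptor chains Ifngr1 and Ifngr2 stood at 1.18 and 0.733, the kinases Jak1 and Jak2 at 1.04 and 1.002, and Ciita, the regulator of MHC class II genes, at 0.8699.

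The interferon gamma target list, which leaves out the chemokines, had 19 measured genes, each with at least 200 UMIs over both sections. Of these, 5 were at least 1.5-fold higher in KO and 2 were lower by the same factor. Over all genes of at least 50 UMIs the shares were 25.2% and 9.98%, near those of the list. Among genes that reached 500 UMIs in their higher section, which not all of the list did, they were 5.23% and 10.3%. The count higher in KO lay above that 5.23%. The list had a median log2 ratio of -0.06. Over all genes the median was 0.15, which TMM scaling moved to -0.06. Gbp2b, a guanylate-binding protein, had the highest ratio of the list at 6.93 from 24 and 177 UMIs, and Nos2, which makes nitric oxide, the lowest at 0.483. The cell-type lists moved with the ligands in different ways. Of 15 T cell genes 14 were at least 1.5-fold higher in KO (median log2 ratio 1.39), as were all 11 CD8 and cytotoxic genes (1.42). Of 18 macrophage genes 13 were at least 1.5-fold lower and none was above 1 (median -0.68), and of 14 hypoxia genes 7 were 1.5-fold or more higher and 2 that much lower (median 0.56). The T cell list summed to 19.1 to 74.0 CPM in WT quadrants and 45.8 to 165 CPM in KO quadrants, and the macrophage list to 1352 to 4279 and 1058 to 3129 CPM, so both overlapped. The part of these cell types in the ligand differences was not tested, and in spots that mix cells, more cells of a type and more RNA per cell cannot be told apart.

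Equal depth was needed to compare how many spots held each gene, so every spot was thinned at random to 5000 UMIs, which left 2671 WT and 2390 KO spots. Cxcl9 was then present in 3.07% of WT spots (2.45 to 3.80) and 13.97% of KO spots (12.6 to 15.4). Cxcl10 was present in 61.9% (60.01 to 63.7) and 53.1% (51.1 to 55.2), and Cxcr3 in 2.51% (1.95 to 3.17) and 2.93% (2.29 to 3.69). The median unrelated-organ gene was present in 0.112% and 0.293% of spots, and the most frequent in 1.68% and 1.72%. Cxcl9 thus reached more spots in KO, Cxcl10 fewer, and the intervals for Cxcr3 overlapped. Before thinning the shares were 12.7% and 38.2% for Cxcl9, 78.96% and 83.5% for Cxcl10 and 11.3% and 16.9% for Cxcr3.

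Most UMIs of each gene lay in a minority of spots. The 97 highest Cxcl9 spots in WT and the 147 highest in KO held 50% of its UMIs, with at most 8 and 42 UMIs in a spot. For Cxcl10 the same 50% took 390 and 350 spots, 12.7% of spots in each section, and the highest spots held 228 and 167 UMIs. The 5% of spots with the most Cxcl9 held 61.6% of it in WT and 48.3% in KO, and the same share of spots held 27.8% and 29.7% of Cxcl10. For Cxcr3, with at most 3 UMIs in a spot, it held 50.1% and 39.9%, so a sparse gene can have a high value too, and the ligands, which differ in abundance, are not ranked by it.

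Scaled to section totals, the direction of the Cxcl10 difference depended on how far a spot lay from the nearest grid position without tissue. In the WT section Cxcl10 was nearly level with depth: 305 CPM at 1 to 2 steps, 356 at 3 to 5, 350.2 at 6 to 9 and 348 CPM at 10 or more steps. In the KO section it was lower at each step inward, at 358, 276, 167 and 133 CPM. The KO over WT ratio of Cxcl10 was therefore above 1 in the outermost spots, at 1.18 (1.14 to 1.21), and 0.382 (0.365 to 0.399) in the innermost. TMM scaling was not run by bin. It moved the whole-section ratio from 0.645 to 0.554 and would lower each of these ratios by the same factor. The outermost ratio would then lie near 1, so its direction rests on the scaling used. The plot by distance from the edge shows the 2 lines crossing.

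Cxcl9 had the same inward gradient in the KO section, with 73.4, 38.4, 32.0 and 18.1 CPM from the edge to the core. WT spots held 5.67, 8.83, 5.47 and 8.11 CPM with no such gradient. The ratio was 12.9 (11.1 to 15.2) at the edge and 2.24 (1.77 to 2.86) in the core, so it stayed above 1 at every distance while it shrank. Cxcr3 had ratios of 1.61, 1.58, 1.22 and 1.05 over the same bins, and the intervals of the inner 2 bins included 1. The KO section was thicker from edge to core, with a median of 6 steps and a maximum of 23, against 3 and 16 in WT.

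**Figure D2:**
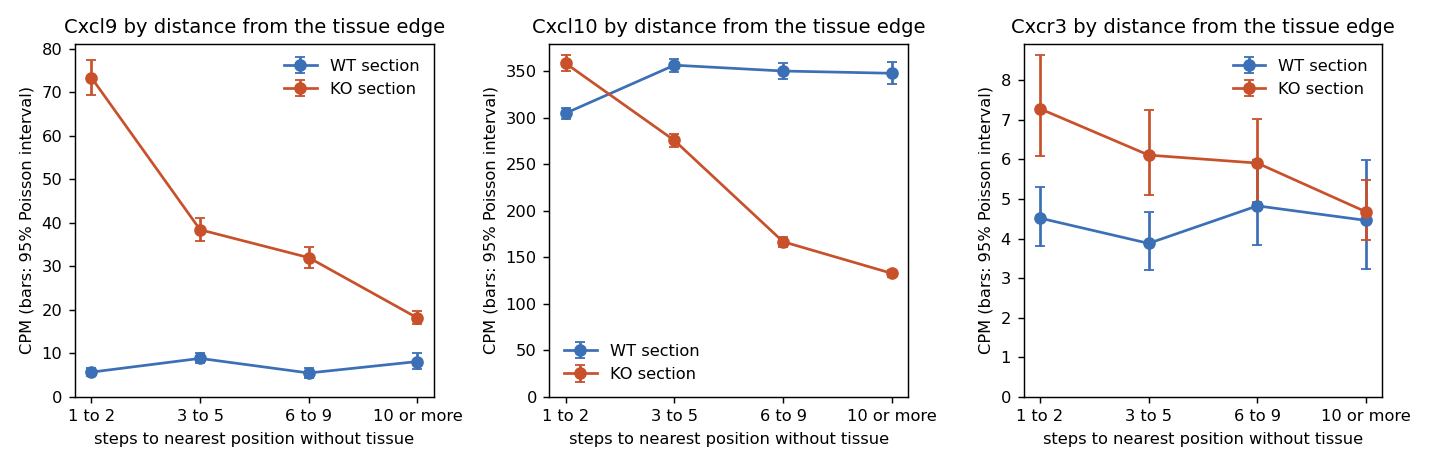
CPM of Cxcl9, Cxcl10 and Cxcr3 against steps on the grid to the nearest position without tissue, for the WT section (blue) and the KO section (orange), with exact 95% Poisson intervals as bars. The Cxcl10 lines cross between the outermost spots (305 and 358 CPM) and the core (348 and 133 CPM), and the Cxcl9 line of the KO section comes down from 73.4 to 18.1 CPM.

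Cell-type lists had gradients of their own over these bins. The T cell list had KO over WT ratios of 5.06, 3.13, 1.78 and 1.40 from the edge inward, the macrophage list 1.39, 0.758, 0.591 and 0.4702, and the interferon gamma target list 1.89, 1.06, 0.798 and 0.624. The hypoxia list ran the other way, at 1.35, 1.58, 1.75 and 1.97. The Cxcl10 and macrophage ratios crossed 1 between the outermost bin and the next, the interferon gamma target ratio 1 bin deeper (at 3 to 5 steps it was 1.06, and 0.98 where the frame of the grid also counted as edge), and the T cell list, like Cxcl9, stayed above 1. Skeletal muscle transcripts also lay at the KO margin, at 842 CPM in the outermost KO spots and 97.1 CPM in WT, and 25.3 and 9.73 CPM in the core. The part of these lists in the ligand gradients was not tested. Within melanocytic-rich spots, which reach the median melanocytic share of all spots, the gradients were smaller. There the Cxcl9 ratio was 12.03, 7.69, 7.53 and 3.71 and the Cxcl10 ratio 0.933, 0.652, 0.543 and 0.5605, below 1 in every bin. In these spots WT Cxcl10 was also lower inward, at 298, 283, 259 and 231 CPM.

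Spots were next sorted into 4 exclusive tissue classes by the summed shares of gene lists that leave out the 3 genes. Melanocytic-rich spots were divided at their median hypoxia share, and the other spots at their median fibroblast and matrix share. The mix differed between the sections: hypoxia-high melanocytic spots made up 10.6% of WT and 41.0% of KO spots, hypoxia-low ones 30.0% and 19.4%, matrix-rich spots 36.5% and 12.1%, and the remaining spots 22.8% and 27.4%. Depth differed as well: the median matrix-rich spot held 12220.5 UMIs in WT and 7253 in KO, against 26818.5 and 36769 over all spots. Classes are regions by their leading genes and not cell types.

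Cxcl9 was higher in the KO section in every class. WT levels were 1.39 CPM in hypoxia-high melanocytic, 4.41 in hypoxia-low melanocytic, 13.7 in matrix-rich and 8.49 CPM in the remaining spots, and KO levels 15.8, 41.5, 153 and 57.4 CPM. The ratios were 11.4, 9.41, 11.2 and 6.76. These sizes depended on where the classes were divided: medians within each section, in place of medians over both, gave 3.82, 5.71, 7.35 and 3.90. Hypoxia-high melanocytic spots were lowest in both sections at either division. Matrix-rich spots were highest in KO at either division, but in WT they stood at 11.7 CPM and the remaining spots at 12.4 CPM with medians within each section. Matrix-rich spots held 15.1% of KO Cxcl9 UMIs on 3.59% of all KO UMIs. With both sections given the same mix of the 4 classes, an alternative added after the data were seen, the ratio was 9.11.

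Cxcl10 peaked in a different class. In WT it stood at 237, 291, 287 and 485 CPM and in KO at 121, 224, 311 and 412 CPM over the same 4 classes, highest in the remaining spots of both sections. With medians within each section the remaining spots were again highest in WT, at 534 CPM, but in KO the matrix-rich spots were, at 397 against 309 CPM. Of the 154 WT spots with at least 37 Cxcl10 UMIs, 53.9% were remaining spots, and of the 138 KO spots with at least 26 UMIs, 65.2%. The KO over WT ratio was 0.5103 (0.486 to 0.536) in hypoxia-high melanocytic, 0.769 in hypoxia-low melanocytic, 1.08 (1.01 to 1.16) in matrix-rich and 0.848 in the remaining spots. With the same mix of classes it was 0.773. Cutting the classes at medians within each section instead gave a ratio of 2.4 in matrix-rich spots and 0.415 to 0.579 in the others. Scaled to section totals, the direction in matrix-rich spots was thus the opposite of the rest at both cuts. TMM scaling was not run by class. It would lower all these ratios by the same factor and reverse the direction of the 1.08.

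Cxcr3 differed between sections in matrix-rich spots, with 44 UMIs in WT and 60 in KO, 2.60 CPM (1.89 to 3.49) and 17.7 CPM (13.5 to 22.8), a ratio of 6.82 (4.54 to 10.3). In the other classes the ratio was 0.937, 1.21 and 1.27, and each interval included 1. With medians within each section the matrix-rich ratio was 3.64 (2.39 to 5.697) and that of the remaining spots 1.88 (1.35 to 2.64), which does not include 1. The matrix-rich class held 103 CPM of the T cell list in WT and 637 CPM in KO, and 5518 and 12439 CPM of the macrophage list. In WT the class with the least Cxcr3 per UMI was the one with the most T cell transcripts: 2.60 CPM against 5.34 and 5.25 CPM in the 2 melanocytic classes, where the T cell list stood at 16.8 CPM in each. The part of T cells in these Cxcr3 values was not tested.

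**Figure D3:**
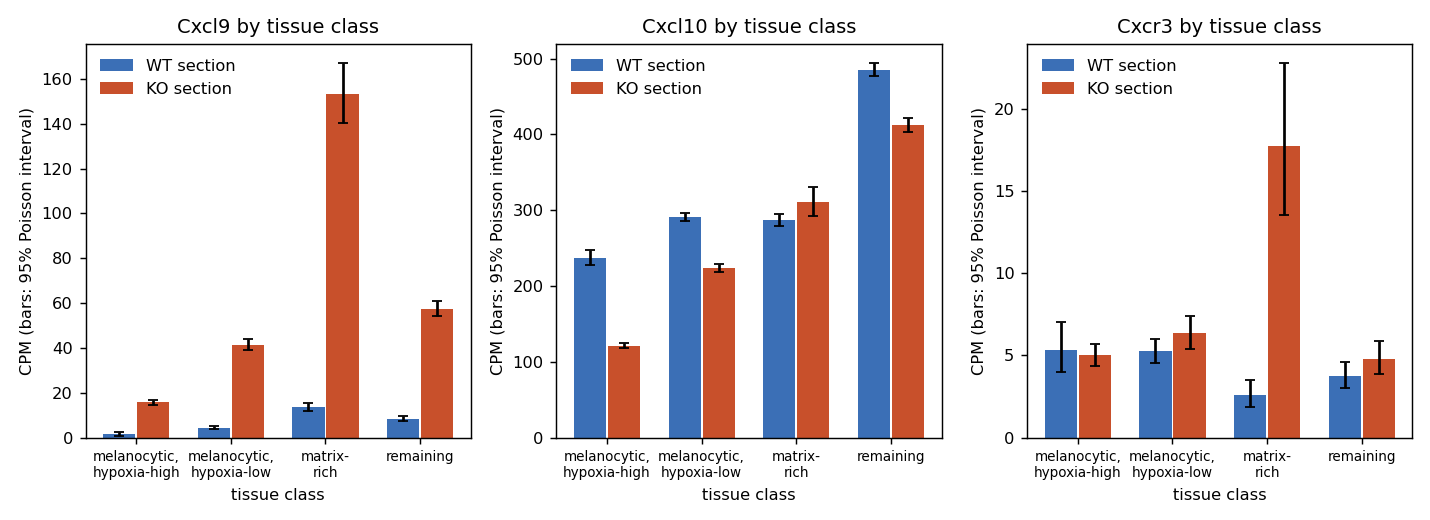
CPM of Cxcl9, Cxcl10 and Cxcr3 in 4 exclusive tissue classes, divided at medians over both sections, of the WT section (blue) and the KO section (orange), with exact 95% Poisson intervals as bars. Cxcl9 is higher in KO in all 4 classes, Cxcl10 is lower in KO in 3 and slightly higher in matrix-rich spots (287 and 311 CPM), and Cxcr3 is highest in KO matrix-rich spots at 17.7 CPM.

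In macrophage-rich areas Cxcl10 differed between the sections in the other direction than elsewhere. Macrophage share is that of the list, in which Apoe gave 82099 of 191363 UMIs in WT and 72425 of 146251 in KO. In the 25% of spots with the highest macrophage share over both sections, 986 in WT and 467 in KO, Cxcl10 stood at 249.9 CPM in WT and 386 CPM in KO, a ratio of 1.54 (1.46 to 1.63). In all other spots it stood at 351 and 206 CPM, a ratio of 0.585 (0.574 to 0.596). Per UMI, WT Cxcl10 was therefore lower in macrophage-rich spots than elsewhere, and KO Cxcl10 higher. The 467 macrophage-rich KO spots gave 2082 Cxcl10 UMIs and the other 2279 gave 18313, so the KO direction holds per UMI and not per spot. Cxcl9 was higher in macrophage-rich spots of both sections, 16.6 against 5.07 CPM in WT and 174 against 28.1 CPM in KO. Spots of at least 5000 UMIs were also ordered by macrophage share within each section, in 4 equal bins. This showed where WT Cxcl10 turned: 269, 313, 506 and 205 CPM from the lowest to the highest bin, against 124, 144, 248 and 405 CPM in KO.

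T cell genes went with both ligands in the KO section. After thinning to 5000 UMIs, KO spots with a UMI of the T cell list held 121 CPM of Cxcl9 and those without 23.5 CPM, and WT spots 19.6 and 4.68 CPM. The KO over WT ratio of Cxcl9 was 6.15 (4.49 to 8.602) with T cell UMIs and 5.02 (3.69 to 6.94) without, with overlapping intervals. For Cxcl10 the KO levels were 311 and 177 CPM and the WT levels 341 and 285 CPM, giving a ratio of 0.912 (0.828 to 1.004) in spots with T cell UMIs and 0.622 (0.585 to 0.661) in spots without. The Cxcl10 ratio was thus farther below 1 in spots without detected T cell transcripts, and the intervals did not overlap. Cxcr3 stood at 5.36 and 4.95 CPM in WT spots with and without T cell UMIs, from 12 and 55 UMIs, and at 11.7 and 4.29 CPM in KO spots, from 36 and 38 UMIs.

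Hypoxia and T cell shares were then read together, each above or not above its median within the section. Of the spots with at least 5000 UMIs, 1391 of 2671 in WT and 757 of 2390 in KO had no T cell UMI. A high T cell share in WT thus meant any T cell UMI, and in KO a share above a higher cut. In KO, Cxcl9 was 79.4 CPM in spots high for T cell and low for hypoxia genes, 16.7 CPM where both were high, 19.9 CPM where both were low and 8.74 CPM in T cell-low, hypoxia-high spots. WT had the same order of the extremes, at 12.2, 7.03, 4.09 and 2.17 CPM. At a high T cell share, Cxcl9 was thus lower in hypoxia-high than in hypoxia-low spots of both sections. Cxcl10 in these 4 groups stood at 313, 243, 149.7 and 130.5 CPM in KO and at 418, 362, 309 and 222.5 CPM in WT. It was thus lower in KO in each group and differed less with hypoxia, but the groups of the sections are cut at unlike T cell shares.

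Correlations across spots with at least 5000 UMIs, 2671 in WT and 2390 in KO, were read beside the CPM values. They are Pearson coefficients of log2(counts per 10000 + 1). The spots of a section share 1 library, and neighbouring spots are not independent. For Cxcl9 the T cell list had r = 0.28 in WT and 0.67 in KO, CD8 and cytotoxic genes 0.16 and 0.65, macrophage genes 0.16 and 0.38, interferon gamma targets 0.29 and 0.61, and hypoxia genes -0.17 and -0.45. The signs were the same in both sections and the KO values were larger in size. The CD8 and cytotoxic sum was mostly Ccl5, which gave 4484 of its 5240 UMIs in WT and 11287 of 14844 in KO. Adipocyte and skeletal muscle genes also went with Cxcl9 in KO, at r = 0.54 and 0.43, against 0.16 and -0.03 in WT. The adipocyte sum was mostly Fabp4, which gave 5203 of its 7162 UMIs in WT and 8546 of 9535 in KO, so its r mainly follows that gene. Fabp4 had a KO over WT ratio of 1.54, whereas Adipoq, another gene of the list, had 0.292. Rank correlations in KO were lower for the T cell list, at 0.40, CD8 and cytotoxic genes, also 0.40, macrophage genes, 0.25, and the muscle list, 0.13. Sums over a spot and its neighbours at 1 step gave 0.43 and 0.82 for the T cell list.

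For Cxcl10 some coefficients changed sign between the sections. The macrophage list had r = -0.31 in WT and 0.17 in KO, the fibroblast and matrix list -0.30 and 0.28, and NF-kB targets -0.24 and 0.19. In CPM over 4 equal bins of list share, WT Cxcl10 peaked in bin 3 for each of these lists. It stood at 221, 368, 523 and 164 CPM for matrix genes and 268, 344, 411 and 312 CPM for NF-kB targets. In KO it rose to 407 and 362 CPM in the highest bins. The melanocytic list had r = 0.498 in WT and -0.02 in KO, and rank correlations of 0.22 and -0.32. Over 4 bins of melanocytic share, WT Cxcl10 stood at 146, 515, 327 and 247 CPM, lowest in bin 1 and falling from bin 2 on. KO Cxcl10 stood at 441, 240, 151 and 119 CPM. Other lists kept their sign in r: T cell genes had r = 0.03 and 0.41, interferon gamma targets 0.01 and 0.36, and hypoxia genes -0.06 and -0.23. A WT r near 0 did not mean level CPM. Over 4 bins of interferon gamma target share, WT Cxcl10 stood at 224, 303, 397 and 515 CPM. Over bins of T cell share it stood at 272, 264, 349 and 465 CPM. Of the 2671 WT spots 1391 had no UMI of that list, so bins 1 and 2 and part of bin 3 were tied. Tied spots were split by their order in the data, so the step from bin 1 to bin 2 does not follow T cell share. The 2 ligands correlated with each other at r = 0.19 in WT and 0.37 in KO. For Cxcr3 the T cell list had r = 0.01 in WT and 0.25 in KO, the melanocytic list 0.11 and -0.17, Cxcl9 0.004 and 0.24, and Cxcl10 0.07 and 0.08. Rank correlations of Cxcr3 in KO were 0.09 with the T cell list, 0.02 with the melanocytic list and 0.11 with Cxcl9. Counts of Cxcr3 are so sparse that these small values are given as a record only.

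**Figure D4:**
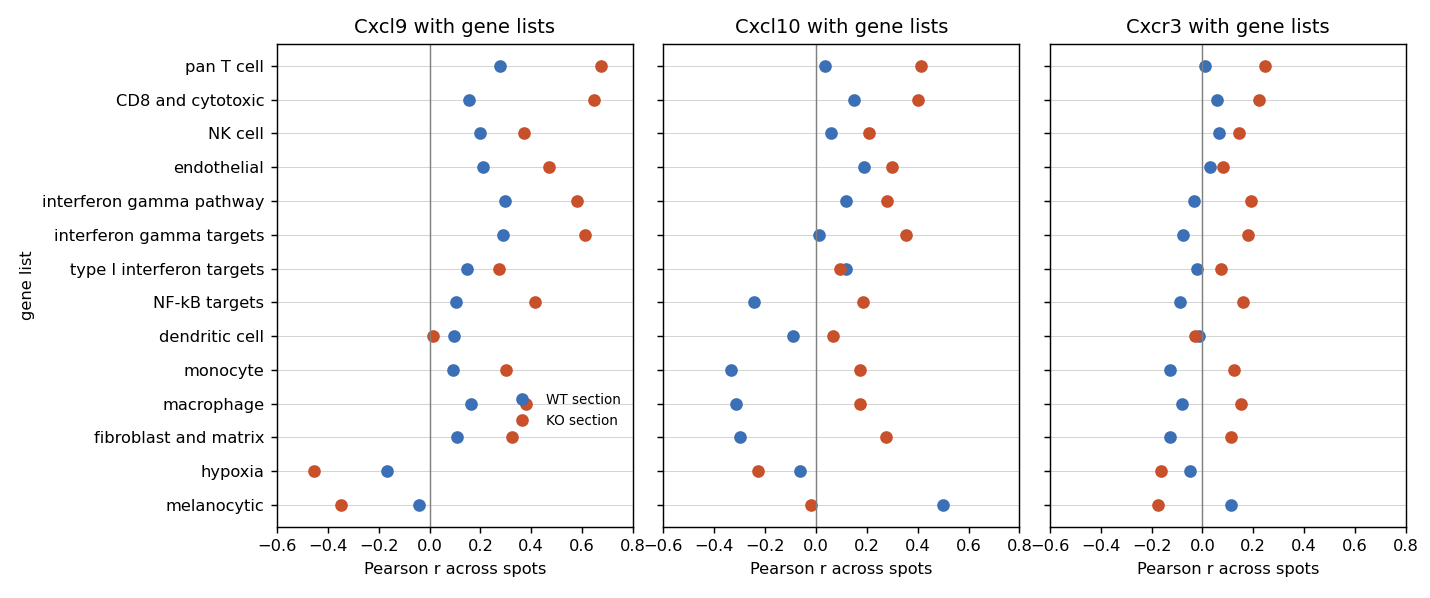
Pearson r across spots of each gene with the summed counts of 14 gene lists, in the WT section (blue, 2671 spots) and the KO section (orange, 2390 spots). For Cxcl10 the macrophage list moves from -0.31 to 0.17 and the melanocytic list from 0.498 to -0.02, while for Cxcl9 the T cell list is at 0.28 and 0.67.

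The genes most like each ligand, by the same r ranked over 10178 WT and 10014 KO genes of 500 UMIs or more, differed in kind. For Cxcl9 in WT they were Gbp2, Gbp4, Serpina3g, Iigp1, Psmb10, Irf1, Gbp6 and B2m, with r from 0.39 down to 0.27. Most of these are interferon-induced GTPases or genes of antigen presentation. In KO they were Serpina3g, Gbp4, Cd52, Ms4a4b, Gbp2, Trbc2, Ccl5 and Trac, with r from 0.72 to 0.60, which adds T cell receptor chains and the T cell chemokine Ccl5. Of the 50 genes most like Cxcl9 in each section, 23 were shared, 46% of each list.

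For Cxcl10 in WT the most alike genes were Car6, Mlph, Hspd1, Mlana, Gpnmb, Gask1b, Ncl and Hsp90aa1, with r from 0.58 to 0.53. Mlph, Mlana and Gpnmb are genes of the melanosome, the pigment organelle, and Hspd1 and Hsp90aa1 encode chaperones. In KO they were Irf1, Ybx3, Gbp2, Igtp, Nlrc5, Cxcl9, Ccl5 and Ifi47, with r from 0.41 to 0.36, mostly interferon-induced genes. Only 2 of the 50 most alike genes were shared between the sections, 4% of each list, namely Prkcq and Ybx3. For Cxcr3 no gene exceeded r = 0.14 in WT, where Psat1 came first, and in KO the first were Ms4a4b, Lck, B4galnt1, Trbc2, Lcn2, Trac, Fgl2 and Ptprcap, at 0.27 to 0.24. None of the 100 genes most like Cxcr3 was shared.

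Nearness of ligand to receptor was read in steps from spots with a Cxcr3 UMI. In KO, Cxcl9 stood at 55.4 CPM in those 465 spots, 33.6 CPM 1 step away, 26.6 CPM at 2 steps and 20.1 CPM farther out. In the 346 such WT spots it stood at 4.895 CPM, then at 7.21, 8.5 and 5.88 CPM, so a decline with distance was seen in KO and not in WT. Cxcl10 stood at 237, 209, 206 and 240.5 CPM in KO and 329.7, 335, 357 and 306 CPM in WT. Depth fell with this distance: the median spot held 42853 UMIs in WT and 46468 in KO where Cxcr3 was present, 36143 and 41611 at 1 step, and 9609 and 2636 at 3 or more steps. On counts thinned to 5000 UMIs, KO Cxcl10 was graded, at 309, 241, 215 and 201 CPM. WT Cxcl10 was level up to 2 steps, at 394, 373 and 385 CPM with overlapping intervals, and lower at 3 or more steps, at 255 CPM. KO Cxcl9 then stood at 269, 81.7, 41.03 and 34.4 CPM. WT Cxcl9 stood at 2.99, 6.92, 7.10 and 7.41 CPM, the first value from 1 UMI.

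Around spots with a UMI of Cd3e, Cd3d, Cd3g or Cd8a, the T cell receptor complex and the CD8 coreceptor, both ligands were graded in both sections. KO Cxcl9 stood at 58.5, 15.2, 10.6 and 9.901 CPM from the spot itself to 3 or more steps away, and WT Cxcl9 at 12.3, 7.49, 3.68 and 2.39 CPM. Cxcl10 stood at 281, 158, 121 and 117 CPM in KO and at 479, 366, 235 and 188 CPM in WT. Here too the farthest spots were shallow, with medians of 867 UMIs in KO and 12249 in WT. On thinned counts, WT Cxcl10 was no longer highest in the T cell spots themselves, at 309 CPM there and 353 CPM 1 step away, while KO Cxcl10 was, at 375 and 241 CPM. At that depth Cxcl9 was present in 37.9% of KO spots with one of these T cell genes and 10.5% of those without, and in 8.33% and 2.80% of WT spots. Cxcr3 was present in 7.52% of KO spots with a T cell gene and 2.26% without, and in 2.27% and 2.52% of WT spots, from 3 spots in the first WT group.

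Moran's I, a score of how far neighbouring spots resemble each other, was taken from the authors' deposited table. Cxcl9 scored 0.185 in WT, rank 4917 of 19296 genes, and 0.391 in KO, rank 822 of 19339. Cxcl10 scored 0.505 in WT at rank 441 and 0.3502 in KO at rank 1246, so the order of the ligands was reversed between the sections. Cxcr3 scored 0.0167 in WT, below the median gene (0.0614), and 0.0609 in KO, just above it (0.0496). The score follows abundance across genes, with a Spearman correlation of 0.888 in WT and 0.8799 in KO with the gene's UMIs, and Cxcl9 had more UMIs in KO and Cxcl10 in WT.

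Several choices were changed to see how far the ratios moved, and the plot of the ratios shows each. The Cxcl9 ratio stayed between 3.40 and 9.11, the Cxcl10 ratio between 0.501 and 0.773, and the Cxcr3 ratio between 1.04 and 1.57. The lowest Cxcl9 value came from interior spots, at least 3 steps from the edge or frame. The Cxcr3 interval in melanocytic-rich spots ran from 0.888 to 1.23.

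**Figure D5:**
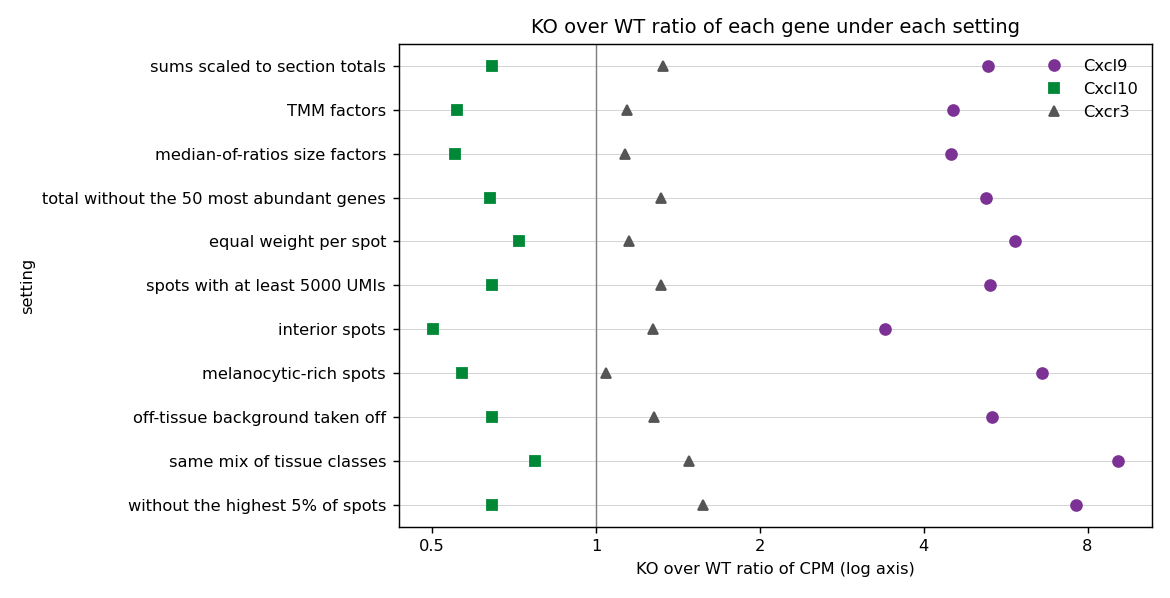
KO over WT ratio of CPM on a log axis for Cxcl9, Cxcl10 and Cxcr3, with 1 row per setting for scaling, spots used or mix of tissue. Cxcl9 lies above 3 and Cxcl10 below 1 in every row shown, and Cxcr3 comes closest to 1 in melanocytic-rich spots at 1.04.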

How the data were processed

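The UMI counts per spot are those the authors deposited, 1 matrix a section, not normalized, with Space Ranger 2.1.0 as the software per the file headers. Space Ranger, featureCounts and the build mm10 stand in the submitters' processing notes without a stated role. Moran's I is the authors' deposited score. Its p-value and average columns, the image scale factors and the alignments played no part here.

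Counts were summed over spots and scaled to the section total (CPM). Levels carry exact Poisson intervals, ratios exact conditional binomial intervals and shares exact binomial intervals. UMIs limit but do not remove duplicate counting, so intervals cover counting error only. With 1 section per genotype there is no p-value, and no spot counts as a replicate. Log2 ratios of lists added 0.5 to each count, and list members needed 50 UMIs over both sections. The 3 genes, the 24 gene lists and the comparisons were chosen with earlier results of these data known.

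Besides the 3 genes, all genes of the CXCR3 axis and interferon gamma pathway lists could be named, except 1 that is not reported here. So could the 3 most abundant members and the highest and lowest ratio (at least 200 UMIs over both sections) of every other list, and the 8 genes most like each of the 3 in a section. Prkcq was named after its values were seen. Python 3.11.15 with numpy 2.4.6, scipy 1.17.1 and pandas 2.3.3 was used, and edgeR 4.0.16 in R 4.3.3 for TMM factors only. Scripts were tested on simulated data. Alternatives covered scaling, weight of spots, depth, position, tissue, probe background, quadrants and thinning.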

Additional observations from a re-analysis of the deposited data

How the results depend on the processing

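In none of the settings run did the ratio over the whole section change direction for Cxcl9, Cxcl10 or Cxcr3. The Cxcl9 ratio was 4.52 with TMM factors, 4.48 with median-of-ratios factors, 5.88 with equal weight per spot, 3.40 in interior spots and 6.61 in melanocytic-rich spots. Leaving out a quadrant gave 3.99 without WT quadrant 2, 6.40 without WT quadrant 3, and 5.77, 5.997 and 4.08 without KO quadrants 1, 2 and 4. The same mix of tissue classes gave 9.11 and leaving out the 5% of spots with the highest share gave 7.61, both settings added after the data were seen. The Cxcl10 ratio was 0.554 with TMM, 0.5495 with median-of-ratios factors, 0.721 with equal weight, 0.501 in interior and 0.567 in melanocytic-rich spots. It was 0.6204, 0.594, 0.673 and 0.696 without WT quadrants 1 to 4, 0.7199, 0.684, 0.5703 and 0.624 without KO quadrants 1 to 4, and 0.773 with the same mix. The Cxcr3 ratio was 1.14 with TMM, 1.13 with median-of-ratios factors, 1.15 with equal weight, 1.04 in melanocytic-rich spots and 1.57 without the highest 5% of spots. With a minimum of 50 UMIs over both sections, genes at least 2-fold higher in KO numbered 2529 and those 2-fold or more lower 827, against 87 and 525 at 500 UMIs.

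Directions turned for 5 of the smaller values compared across settings, beside 2 WT rank correlations near 0 (-0.0077 for Cxcl10 with interferon gamma targets and -0.0080 for Cxcr3 with T cell genes). The cause was not tested. The KO rank correlation of Cxcr3 with macrophage genes was -0.00089. On thinned counts, WT Cxcl10 in spots with Cxcr3 over spots 1 step away was 1.06, and in spots with T cell genes 0.876. Over members with at least 200 UMIs the median log2 ratio was -0.33 for keratinocyte genes (2 members) and -0.21 for the unrelated-organ genes (2 members). Further values outside that count turned too, and not all are listed. KO Cxcr3 had r = -0.17 and a rank correlation of 0.02 with melanocytic genes, and 0.11 and -0.0024 with matrix genes. The interferon gamma target ratio at 3 to 5 steps was 1.06, and 0.98 with the frame as edge. No paired analysis was possible because each genotype has 1 section. Depth limits Cxcr3 most, since it left 67 and 74 UMIs after thinning.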

Other observations

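Of 15 measured genes of other inflammatory chemokines, 4 were at least 1.5-fold higher in KO and 6 that much lower. The shares were 25.2% and 9.98% over genes of at least 50 UMIs, and 5.23% and 10.3% over genes that reached 500 in their higher section. All 15 had at least 200 UMIs over both sections. The median log2 ratio of the list was -0.28. Ccl8, a monocyte-attracting chemokine, was 2.76-fold higher in KO (2.697 to 2.83) and Ccl5, which attracts T cells and is also made by them, 2.37-fold higher (2.28 to 2.45). Ccl7, another monocyte attractant, had a ratio of 0.445 (0.432 to 0.459), and Ccl22, a chemokine of dendritic cells that attracts regulatory T cells, 0.386 (0.295 to 0.503). Cxcl13, which draws B cells into follicles, gave 15 UMIs in WT, below the median of the unrelated-organ genes, and 372 in KO.

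Of 15 type I interferon target genes measured, none was at least 1.5-fold higher in KO and 2 were that much lower (4 with TMM scaling). The shares were 25.2% and 9.98% over genes of at least 50 UMIs, and 5.23% and 10.3% over genes that reached 500. All 15 had at least 200 UMIs over both sections, so an absence of higher genes is not read from the 25.2%. The median log2 ratio of the list was -0.01, and 0.15 over all genes. Rsad2, an antiviral enzyme, had a ratio of 1.24 (1.2004 to 1.29), Usp18, which restrains interferon signalling, 1.004 (0.975 to 1.03) and Oasl2 0.576 (0.558 to 0.596). In the 25% of spots with the highest share of this list Cxcl10 stood at 461 CPM in WT and 360.3 CPM in KO, against 289 and 194 CPM elsewhere.

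Dendritic cell genes varied little with either ligand in the KO section, where the list had r = 0.01 with Cxcl9 and 0.07 with Cxcl10. Fscn1, which gave 43072 and 43912 UMIs, made up most of the list's counts. The endothelial list had r = 0.21 in WT and 0.47 in KO with Cxcl9, and 0.19 and 0.30 with Cxcl10.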
